A study of Homo sapiens with 12 samples.

Results

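Protein arginine methyltransferases are the enzymes that place methyl groups on arginine side chains of proteins. The account covers 9 of the 36615 gene symbols in the deposited expression table. These 9 genes were taken by symbol, with earlier results of these data known. They were the type I genes PRMT1, CARM1, PRMT2, PRMT3 and PRMT6, the type II genes PRMT5 and PRMT9, the type III gene PRMT7, and WDR77, which encodes the partner subunit of PRMT5. All 9 were among the 13728 genes that passed a filter on low values. PRMT8, the remaining gene of the family in the table, was at 0 in most libraries and averaged at most 0.00609 FPKM in any group, so it was not tested.

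Poly(A) RNA was sequenced, per the series design text. The libraries came from HCT116, a human colorectal cancer cell line, in its p53+/+ form and in a p53-/- form. Mina53, the product of RIOX2, is an oxygenase of the JmjC type found in the nucleolus, and it was depleted in both forms. There were 4 groups of 3 libraries, 12 in all: p53-/- cells depleted of Mina53 (p53-/- KD), p53-/- cells with a scrambled control (p53-/- SCR), p53+/+ cells depleted of Mina53 (p53+/+ KD) and p53+/+ cells with the scrambled control (p53+/+ SCR). Nothing in the sources used here says whether the replicates were separate cultures, so the spread behind each p-value may be only that of repeated libraries. The genotypes are carried by 1 line each, so an effect of p53 and any other difference between the lines cannot be told apart.

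Type I enzymes make asymmetric dimethylarginine, type II enzymes make symmetric dimethylarginine, and type III enzymes stop at monomethylarginine. All take the methyl group from S-adenosylmethionine, and their main substrates are histones, RNA-binding proteins rich in arginine and glycine, and the Sm proteins of the spliceosome. PRMT1 and CARM1 are known as coactivators of p53, PRMT5 is known to methylate p53, and PRMT5 acts in a complex with WDR77, also called MEP50.

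The promoters of PRMT5, WDR77 and PRMT6 are shown because PRMT5 and WDR77 are subunits of 1 complex whose RNAs changed differently on depletion, and PRMT6 was the enzyme gene that rose in both lines. Each window holds 250 bases before the annotated start and 50 after it, 5′ to 3′ on the strand of the gene, from RefSeq on GRCh38.p14. Capitals mark matches to 6 short motifs searched on both strands. The windows are chr14:22929327-22929626 on the minus strand for PRMT5, chr1:111449207-111449506 on the minus strand for WDR77 and chr1:107056424-107056723 on the plus strand for PRMT6.
PRMT5: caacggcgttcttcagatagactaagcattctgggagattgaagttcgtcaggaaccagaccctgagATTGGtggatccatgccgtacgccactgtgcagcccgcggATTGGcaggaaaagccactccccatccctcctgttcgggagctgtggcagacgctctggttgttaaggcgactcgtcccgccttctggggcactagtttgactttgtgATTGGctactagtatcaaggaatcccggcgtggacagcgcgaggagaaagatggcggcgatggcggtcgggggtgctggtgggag
WDR77: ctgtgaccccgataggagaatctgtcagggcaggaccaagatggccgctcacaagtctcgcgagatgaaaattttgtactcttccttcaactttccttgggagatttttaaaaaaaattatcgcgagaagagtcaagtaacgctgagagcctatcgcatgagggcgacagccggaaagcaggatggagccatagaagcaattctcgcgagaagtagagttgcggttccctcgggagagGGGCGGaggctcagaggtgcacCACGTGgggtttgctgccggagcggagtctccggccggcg
PRMT6: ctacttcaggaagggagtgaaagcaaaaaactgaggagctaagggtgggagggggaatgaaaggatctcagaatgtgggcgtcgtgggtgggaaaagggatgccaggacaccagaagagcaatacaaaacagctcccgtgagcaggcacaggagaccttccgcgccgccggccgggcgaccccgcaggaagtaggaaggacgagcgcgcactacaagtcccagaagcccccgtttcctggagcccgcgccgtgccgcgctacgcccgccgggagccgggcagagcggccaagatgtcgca
The PRMT5 window held 3 CCAAT words, all read as ATTGG on the printed strand, and the share of all 35116 RefSeq windows of this length with at least 1 was 34.6%. Its GC content was 58%. The WDR77 window, of 54.7% GC, held no CCAAT word. It had 1 GC box (GGGCGG, in 45.0% of all windows) and 1 E-box (CACGTG, in 7.26% of all windows). The PRMT6 window, of 63% GC, held none of the 6 motifs. Over the 11 windows of the 9 genes, 9 held a GC box, 2 held CCAAT, 2 held the E-box, 1 held an E2F word (TTTGGCGC or TTTCCCGC, 2.27% of all windows) and 1 held the ETS word CCGGAAG (10.3%). None held the CRE word TGACGTCA (1.85%), and no 2 matches within a window overlapped. CARM1 and PRMT7 had more than 1 window each. The PRMT7 windows shared sequence, so the same GC boxes were counted in both. By gene, a GC box was found for CARM1, PRMT1, PRMT2, PRMT3, PRMT7, PRMT9 and WDR77. A match is a string of letters and not evidence of binding.

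The deposited values carry no stated unit and were read as FPKM. On that scale fragments are corrected for transcript length and library size, so that levels can be compared between genes. Library totals ran from 348822 to 372821 FPKM, and the sequencing depth behind them is unknown. RIOX2 RNA checked the depletion: it stood at 22.3% of the scrambled level in p53-/- cells and at 36.3% in p53+/+ cells. Of 8 colon epithelial markers, 6 passed the filter, with list sums of 1859 to 1949 FPKM in p53-/- KD, 1893 to 2045 in p53-/- SCR, 2087 to 2282 in p53+/+ KD and 2380 to 2397 in p53+/+ SCR; VIL1 and LGR5 did not pass. On depletion 2 of the 6 were called higher and 2 lower in p53-/- cells, and 1 higher and 4 lower in p53+/+ cells. Over all genes 28.9% were called higher and 29.9% lower in p53-/- cells, and 28.5% higher and 32.2% lower in p53+/+ cells. Between the lines 1 was called higher and 4 lower in p53-/- among depleted cells, and 1 higher and 5 lower among controls. The shares over all genes were 37.0% higher and 27.3% lower among depleted cells, and 36.7% higher and 26.6% lower among controls. No endothelial marker passed. Of the fibroblast markers only COL1A1 passed, with list sums of 11.7 to 12.2 FPKM in p53-/- KD, 7.07 to 7.62 in p53-/- SCR, 10.2 to 10.7 in p53+/+ KD and 6.75 to 7.43 in p53+/+ SCR. Of the leukocyte markers only CD68 passed, with list sums of 6.84 to 8.53 FPKM in p53-/- KD, 7.96 to 9.68 in p53-/- SCR, 4.66 to 5.10 in p53+/+ KD and 7.80 to 9.25 in p53+/+ SCR. The share of the library total in mitochondrially encoded genes moved with depletion and differed between the lines. It was 14.1% ± 0.284 in p53-/- KD and 10.5% ± 0.476 in p53-/- SCR. In the p53+/+ line it was 18.6% ± 0.737 in KD and 14.1% ± 0.270 in SCR (SD, n = 3 each). The part of these markers in the results was not tested, while the mitochondrial share was tested by leaving those genes out. In bulk RNA, fewer cells of a type and less RNA per cell cannot be told apart.

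PRMT1 was the most abundant transcript of the family in every library and PRMT9 the least abundant of the genes tested in every group. PRMT1, the enzyme held to make most asymmetric dimethylarginine in cells, averaged 180.7 ± 6.44 FPKM in p53-/- KD, 185.9 ± 8.99 in p53-/- SCR, 156.0 ± 6.10 in p53+/+ KD and 166.7 ± 6.09 in p53+/+ SCR (SD, n = 3 each). By mean level it ranked 234 among the 13728 genes tested. PRMT5 followed at rank 780 and CARM1 at rank 1510, and these 3 kept that order in all 4 groups without overlap of their libraries. PRMT2 and then WDR77 came next in 3 groups, while in p53+/+ KD cells WDR77 stood above PRMT2. PRMT7, PRMT6 and PRMT3 lay close together, at ranks 7268, 8061 and 8193, and their order differed between groups. The libraries of PRMT6 and PRMT7 overlapped in both depleted groups, those of PRMT3 and PRMT6 overlapped in p53-/- SCR, and those of PRMT7 and PRMT3 overlapped in p53+/+ SCR. PRMT9 ranked 11029.

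**Figure D1:**
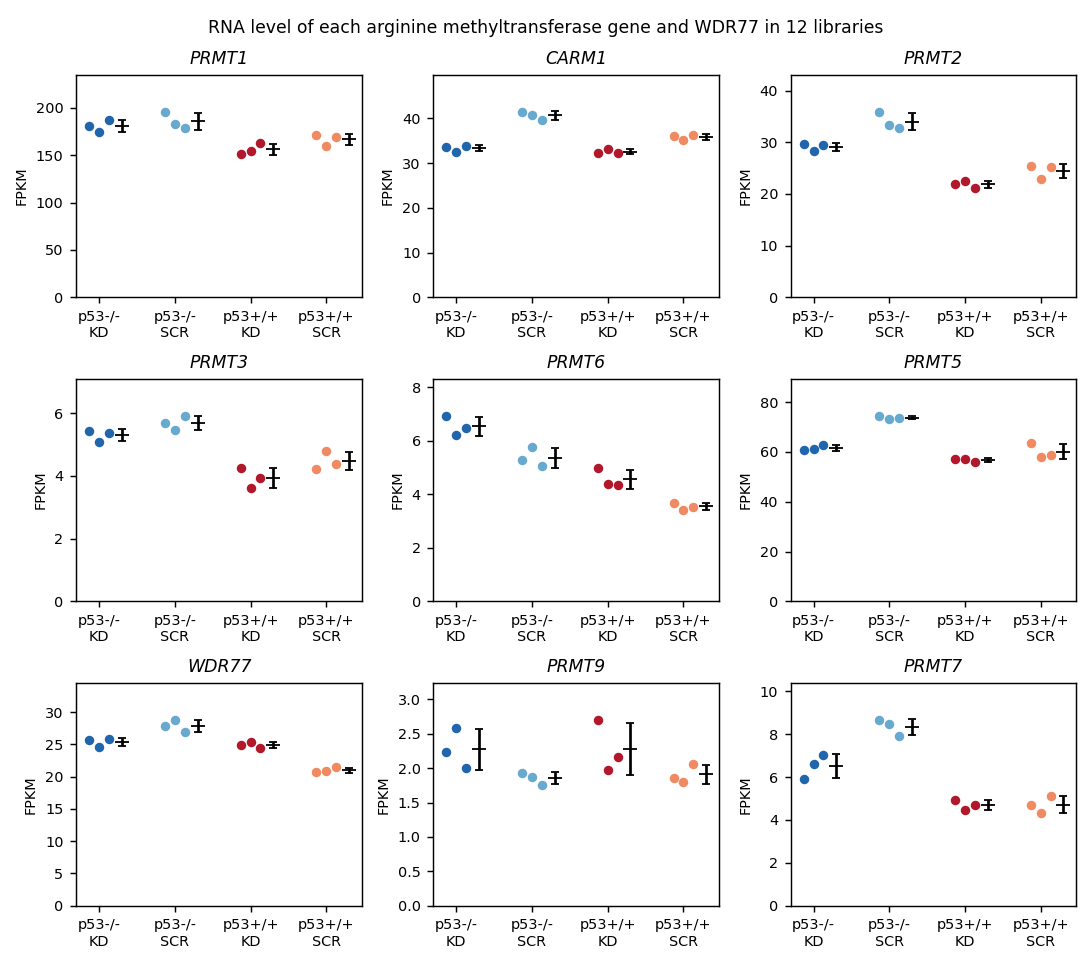
RNA level (FPKM, linear axes from 0) of the 8 enzyme genes and WDR77 in each of the 12 libraries, by group. Points are libraries and bars are mean ± SD (n = 3); PRMT6 is higher in the depleted group of each line, while WDR77 is higher in the depleted group of the p53+/+ line and lower in that of the p53-/- line.

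The first question was how the family responded to Mina53 depletion within each line. PRMT6 rose in both lines and CARM1 and PRMT2 fell in both. PRMT5 and PRMT7 fell in p53-/- cells, WDR77 fell in p53-/- cells and rose in p53+/+ cells, and PRMT3 fell in p53+/+ cells only narrowly past the threshold. PRMT1 and PRMT9 passed the test in neither line. All these changes were small: the largest change of a mean was the 28.7% by which PRMT6 was higher in p53+/+ KD cells. Tests were made with limma on log2(FPKM + 1), fitted over all genes and all 12 libraries, and a gene was called at a Benjamini-Hochberg adjusted p under 0.05. Fold changes are on that log2(FPKM + 1) scale, which understates the change of low genes such as PRMT3, PRMT6, PRMT7 and PRMT9.

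In p53-/- cells, 1 of the 9 genes was called higher and 5 lower. Depletion moved much of the transcriptome: 28.9% of all genes tested were called higher and 29.9% lower, 58.8% in either direction, so 6 of 9 genes past the threshold is near the background. The median log2 change was -0.13 over the 9 genes and -0.0028 over all genes. In p53+/+ cells, 2 of the 9 were called higher and 3 lower, where 28.5% of all genes were called higher and 32.2% lower, 60.7% in either direction. There the median log2 change was -0.08 over the 9 genes and -0.02 over all genes. The 3 lower calls depend on the scaling: with mitochondrial genes left out, 3 of the 9 were called higher and 0 lower in p53+/+ cells, and 59.1% of all calls were higher, against 47.0% with them.

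**Figure D2:**
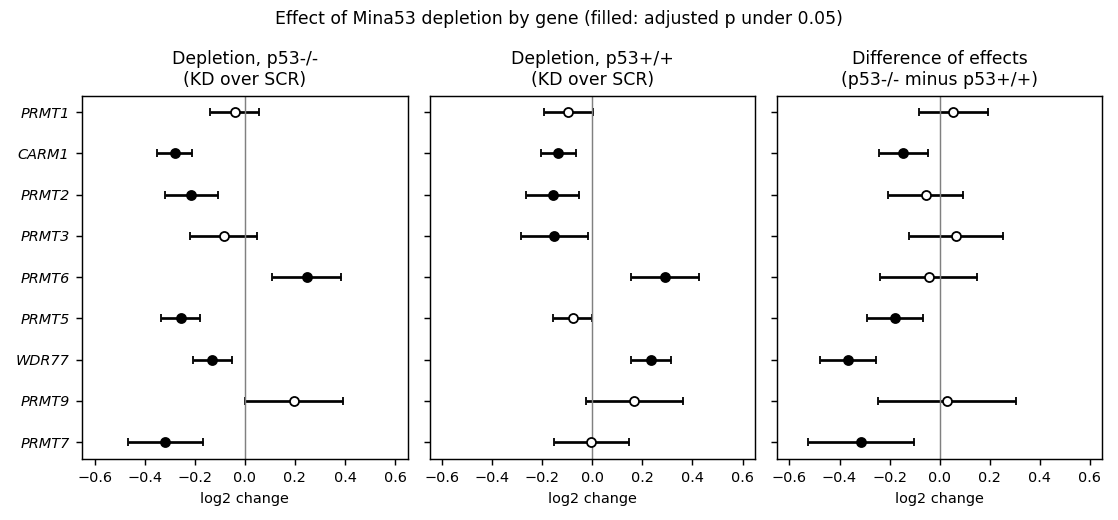
Change in RNA level (log2 scale, FPKM + 1) of each gene on depletion, KD over SCR, by line, and the difference between these effects, p53-/- minus p53+/+. Points are limma estimates with 95% intervals over 12 libraries, filled where the adjusted p was under 0.05; WDR77 lies at -0.13 in p53-/- cells and at 0.24 in p53+/+ cells.

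Among type I enzymes, PRMT6 showed the largest rise. PRMT6 is a nuclear enzyme that methylates histone H3 at arginine 2, a mark that opposes activation of promoters. Its libraries read 6.94, 6.23 and 6.47 FPKM in p53-/- KD, against 5.27, 5.77 and 5.05 FPKM in p53-/- SCR. In the p53+/+ line they read 4.98, 4.38 and 4.36 FPKM in KD, against 3.68, 3.43 and 3.55 FPKM in SCR. In each line all 3 depleted libraries lay above all 3 scrambled ones. The mean was 22.0% higher in p53-/- KD (log2 change 0.25, limma adjusted p = 0.00508) and 28.7% higher in p53+/+ KD (log2 change 0.29, limma adjusted p = 0.00163). The p53-/- minus p53+/+ difference between these effects was -0.04 (95% interval -0.24 to 0.15, limma adjusted p = 0.738).

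CARM1, a coactivator that methylates histone H3 at arginine 17, went down in both lines. CARM1 had 33.5, 32.5 and 33.8 FPKM in p53-/- KD, against 41.5, 40.8 and 39.6 FPKM in p53-/- SCR. In p53+/+ cells CARM1 had 32.3, 33.1 and 32.1 FPKM in KD, against 36.0, 35.1 and 36.3 FPKM in SCR. The groups did not overlap in either line. CARM1 fell by 18.1% in p53-/- cells (log2 change -0.28, limma adjusted p = 1.24e-05) and by 9.23% in p53+/+ cells (log2 change -0.14, limma adjusted p = 0.00294). With mitochondrial genes left out of the total, the p53+/+ change was -0.04 (adjusted p = 0.253) and was no longer called. YIPF2, which overlaps CARM1 in the GENCODE annotation, averaged 15.7 FPKM in p53-/- KD, 16.9 in p53-/- SCR, 18.2 in p53+/+ KD and 15.8 in p53+/+ SCR; strand-specific counting is not stated, so reads of the overlap cannot be told apart.

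PRMT2, a type I enzyme with an SH3 domain that is known as a nuclear receptor coactivator, also fell in both lines. PRMT2 had 29.6, 28.3 and 29.5 FPKM in p53-/- KD, against 35.9, 33.3 and 32.8 FPKM in p53-/- SCR. In p53+/+ cells it had 21.9, 22.5 and 21.1 FPKM in KD, against 25.4, 22.9 and 25.3 FPKM in SCR. The groups did not overlap in either line, though in p53+/+ cells the gap between the highest KD and the lowest SCR library was narrow. The log2 change was -0.21 in p53-/- cells (limma adjusted p = 0.00238) and -0.16 in p53+/+ cells (limma adjusted p = 0.0135). The p53+/+ call was lost with mitochondrial genes left out (-0.07, adjusted p = 0.236), without p53+/+ KD replicate 3 (adjusted p = 0.0505) and without p53+/+ SCR replicate 1 (adjusted p = 0.0554) or 3 (adjusted p = 0.0520).

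PRMT3, a cytosolic enzyme whose best known substrate is ribosomal protein S2, was at the edge of detection as a change. It averaged 5.30 ± 0.180 FPKM in p53-/- KD and 5.68 ± 0.222 in p53-/- SCR, a log2 change of -0.09 (95% interval -0.22 to 0.05, limma adjusted p = 0.250). In p53+/+ cells it averaged 3.93 ± 0.322 FPKM in KD and 4.47 ± 0.290 in SCR (SD, n = 3 each), and their libraries overlapped. The log2 change there was -0.15 (limma adjusted p = 0.0470), and the call was lost in 15 of 20 alternative analyses, with a value of -0.07 (adjusted p = 0.341) when mitochondrial genes were left out.

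PRMT1 gave no call. Its libraries read 181.0, 174.1 and 186.9 FPKM in p53-/- KD, against 195.9, 183.2 and 178.5 FPKM in p53-/- SCR. In p53+/+ cells they read 150.7, 154.6 and 162.7 FPKM in KD, against 171.0, 159.7 and 169.5 FPKM in SCR. The groups overlapped in both lines. The log2 change was -0.04 in p53-/- cells (95% interval -0.14 to 0.06, limma adjusted p = 0.464) and -0.10 in p53+/+ cells (95% interval -0.19 to 0.0021, limma adjusted p = 0.0836). In p53+/+ cells it passed the threshold without KD replicate 3 (adjusted p = 0.0409) or without SCR replicate 2 (adjusted p = 0.0447). ADM5 overlaps PRMT1 on the same strand and averaged 1.61 FPKM in p53-/- KD, 2.33 in p53-/- SCR, 2.08 in p53+/+ KD and 3.92 in p53+/+ SCR, far below PRMT1.

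Of the type II enzymes, PRMT5 makes most symmetric dimethylarginine and methylates Sm proteins and histones H3 and H4. Its promoter is the window with 3 CCAAT words. PRMT5 had 60.9, 61.1 and 62.8 FPKM in p53-/- KD, against 74.5, 73.2 and 73.6 FPKM in p53-/- SCR. In p53+/+ cells PRMT5 had 57.3, 57.0 and 55.9 FPKM in KD, against 63.5, 57.8 and 58.8 FPKM in SCR. Neither pair overlapped, but the gap was wide only in p53-/- cells. PRMT5 fell by 16.5% in p53-/- cells (log2 change -0.26, limma adjusted p = 6.46e-05). In p53+/+ cells the mean was 94.5% of the SCR mean (log2 change -0.08, 95% interval -0.16 to -0.00059, limma adjusted p = 0.0758), and the change passed the threshold only without SCR replicate 2 (adjusted p = 0.0360). The antisense gene PRMT5-AS1 averaged at most 0.190 FPKM in any group.

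WDR77 encodes the WD-repeat subunit that binds PRMT5 and presents substrates to it, and it was the gene of the set whose effects differed most between the lines. WDR77 had 25.6, 24.6 and 25.8 FPKM in p53-/- KD, against 27.8, 28.8 and 27.0 FPKM in p53-/- SCR. In p53+/+ cells WDR77 had 24.9, 25.3 and 24.5 FPKM in KD, against 20.7, 20.9 and 21.4 FPKM in SCR. The depleted libraries lay below the scrambled ones in p53-/- cells and above them in p53+/+ cells, with no overlap in either line. The log2 change was -0.13 in p53-/- cells (limma adjusted p = 0.00783) and 0.24 in p53+/+ cells (limma adjusted p = 0.000117). The p53-/- call was narrowly lost with mitochondrial genes left out (-0.09, adjusted p = 0.0526), while the p53+/+ call held in all 20 alternative analyses. ATP5PB overlaps WDR77 and averaged 45.6 FPKM in p53-/- KD, 48.5 in p53-/- SCR, 46.0 in p53+/+ KD and 52.0 in p53+/+ SCR; it was lower in p53+/+ KD than in p53+/+ SCR, where WDR77 was higher.

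PRMT9, the other type II enzyme, whose known substrate is the splicing factor SF3B2, was low and variable. PRMT9 had 2.24, 2.59 and 2.002 FPKM in p53-/- KD, against 1.93, 1.88 and 1.76 FPKM in p53-/- SCR. In p53+/+ cells PRMT9 had 2.70, 1.98 and 2.16 FPKM in KD, against 1.86, 1.80 and 2.07 FPKM in SCR. The groups overlapped in p53+/+ cells and not in p53-/- cells. The log2 change was 0.20 in p53-/- cells (95% interval 0.0021 to 0.39, limma adjusted p = 0.0768) and 0.17 in p53+/+ cells (95% interval -0.03 to 0.36, limma adjusted p = 0.124). It passed the threshold in p53-/- cells without p53-/- KD replicate 3 (adjusted p = 0.0389) or p53+/+ KD replicate 1 (adjusted p = 0.0435), and in p53+/+ cells with mitochondrial genes left out (adjusted p = 0.0458). TMEM184C lies on the opposite strand over part of PRMT9 and was more abundant, at 7.50 FPKM in p53-/- KD, 8.24 in p53-/- SCR, 6.20 in p53+/+ KD and 6.27 in p53+/+ SCR, so PRMT9 values are uncertain.

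PRMT7, the type III enzyme, which makes monomethylarginine, moved in p53-/- cells. PRMT7 had 5.91, 6.60 and 7.04 FPKM in p53-/- KD, against 8.66, 8.47 and 7.94 FPKM in p53-/- SCR. In p53+/+ cells PRMT7 had 4.95, 4.46 and 4.68 FPKM in KD, against 4.71, 4.34 and 5.10 FPKM in SCR. The p53-/- groups did not overlap, while the p53+/+ groups overlapped fully. PRMT7 fell by 22.0% in p53-/- cells (log2 change -0.32, limma adjusted p = 0.00165). In p53+/+ cells the log2 change was -0.0039 (95% interval -0.15 to 0.14, limma adjusted p = 0.965).

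The second question was whether the response to depletion differed between the lines. The difference of the effects, p53-/- minus p53+/+, was called for 4 of the 9 genes, all of them lower, where 32.9% of all genes were called in either direction, 16.7% higher and 16.2% lower. WDR77 had the largest difference, at -0.37 (95% interval -0.48 to -0.25, limma adjusted p = 0.000246), and it held in all 19 alternative analyses. PRMT5, its partner, had a difference of -0.18 (95% interval -0.29 to -0.07, limma adjusted p = 0.0190), which also held in all 19. It held narrowly, as the highest limma adjusted p among them was 0.0490 for PRMT5, against 0.00129 for WDR77. The differences of PRMT7 (-0.31, 95% interval -0.52 to -0.10, limma adjusted p = 0.0264) and CARM1 (-0.14, 95% interval -0.24 to -0.05, limma adjusted p = 0.0290) were less firm. PRMT7 lost its call with no filter on low values (adjusted p = 0.0687), without p53-/- KD replicate 1 (0.0630), without p53-/- SCR replicate 1 (0.0603) or 2 (0.0538), without p53+/+ KD replicate 1 (0.0568) and without p53+/+ SCR replicate 2 (0.0654). CARM1 lost its call in 7 of 19 alternative analyses, among them with no variance trend (adjusted p = 0.0588), without p53-/- KD replicate 2 (0.0730), without p53-/- SCR replicate 1 (0.0666) or 2 (0.0587), without p53+/+ KD replicate 2 (0.0729) and without p53+/+ SCR replicate 2 (0.0694). For the other 5 genes the adjusted p was 0.537 or more, with a difference of 0.05 for PRMT1 (95% interval -0.08 to 0.19). RIOX2 itself was depleted further in p53-/- cells, by a difference of -0.55 (limma adjusted p = 0.00142), and the part of this unequal depletion in the differences was not tested.

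The third question was how the lines differed at the same treatment. These comparisons reuse the libraries described above. Every call was towards a higher level in the p53-/- line, and the largest difference was that of PRMT6 in depleted cells and that of PRMT7 in controls. In depleted cells 6 of the 9 genes were called higher in p53-/- and none lower, where 37.0% of all genes were called higher and 27.3% lower, 64.3% in either direction. In scrambled controls 8 of the 9 were called higher in p53-/- and none lower, where 36.7% of all genes were called higher and 26.6% lower, 63.4% in either direction. The median log2 difference over the 9 genes was 0.21 in depleted cells and 0.29 in controls, against 0.06 over all genes in each.

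**Figure D3:**
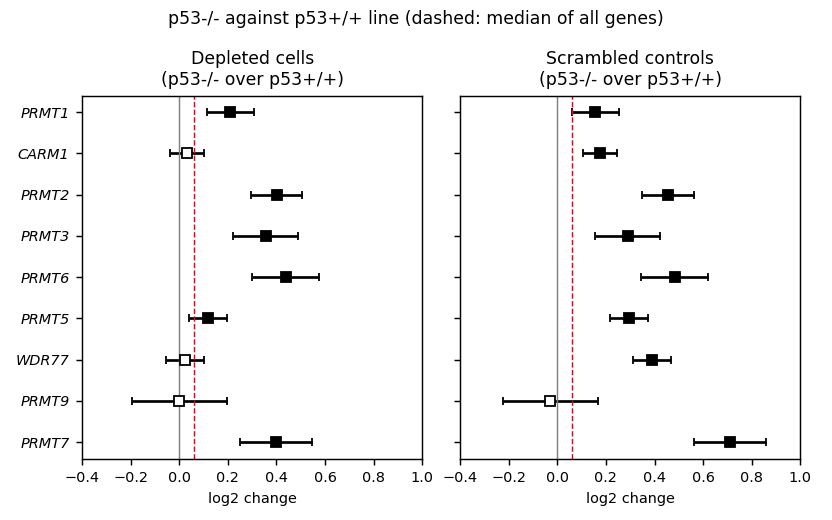
Difference in RNA level (log2 scale, FPKM + 1) between the lines, p53-/- over p53+/+, in depleted cells and in scrambled controls. Squares are limma estimates with 95% intervals over 12 libraries, filled where the adjusted p was under 0.05, and the dashed line is the median of all genes; PRMT7 lies at 0.71 in controls and PRMT9 near 0 in both.

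PRMT7 was 77.1% higher in p53-/- SCR than in p53+/+ SCR cells (log2 0.71, limma adjusted p = 2.10e-06) and 38.8% higher in p53-/- KD than in p53+/+ KD cells (log2 0.40, limma adjusted p = 0.000259). For PRMT6 the p53-/- mean was 51.0% higher in controls (log2 0.48, limma adjusted p = 2.93e-05) and 43.2% higher in depleted cells (log2 0.44, limma adjusted p = 6.13e-05). PRMT2 was 38.6% higher in p53-/- controls (log2 0.46, limma adjusted p = 5.25e-06). For these 3 genes no library of the p53-/- line overlapped one of the p53+/+ line at the same treatment. PRMT3 differed by 0.36 on the log2 scale in depleted cells (limma adjusted p = 0.000257) and by 0.29 in controls (limma adjusted p = 0.00126).

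WDR77 and CARM1 were called higher in p53-/- only among the controls. In depleted cells WDR77 averaged 25.3 ± 0.664 FPKM in p53-/- and 24.9 ± 0.425 in p53+/+ (log2 0.02, limma adjusted p = 0.580), while in controls it averaged 27.8 ± 0.905 in p53-/- and 21.0 ± 0.389 in p53+/+ (SD, n = 3 each, log2 0.39, limma adjusted p = 1.51e-06). CARM1 differed by 0.03 in depleted cells (95% interval -0.04 to 0.10, limma adjusted p = 0.395) and by 0.18 in controls (limma adjusted p = 0.000417). The tests of whether these contrasts differ are the differences of effects given above. PRMT5 was higher in p53-/- by 0.12 in depleted cells (limma adjusted p = 0.0132) and by 0.29 in controls (limma adjusted p = 1.72e-05), and the call in depleted cells was lost with TMM-type scaling (0.05, adjusted p = 0.257). PRMT1 was higher by 0.21 in depleted cells (limma adjusted p = 0.00126) and by 0.16 in controls (limma adjusted p = 0.00891), and the call in controls was lost with TMM-type scaling (0.10, adjusted p = 0.0872). PRMT9 did not pass in either, with a log2 difference of -0.03 in controls (limma adjusted p = 0.791).

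Ratios between genes of 1 library do not depend on how libraries are scaled, and they are given as descriptions without a test. These ratios were chosen with earlier results of these data known and restate the levels given above. The WDR77 to PRMT5 ratio was 0.421, 0.402 and 0.411 in p53-/- KD, against 0.373, 0.393 and 0.366 in p53-/- SCR. In p53+/+ cells it was 0.435, 0.444 and 0.438 in KD, against 0.326, 0.361 and 0.365 in SCR. The depleted libraries lay above the scrambled ones in both lines, with more RNA of the WDR77 subunit per PRMT5 RNA. The PRMT6 to PRMT7 ratio averaged 1.01 ± 0.140 in p53-/- KD, 0.642 ± 0.0367 in p53-/- SCR, 0.973 ± 0.0386 in p53+/+ KD and 0.755 ± 0.0521 in p53+/+ SCR (SD, n = 3 each), again with no overlap between depleted and scrambled libraries of a line. The summed level of the 8 enzyme genes was 325.3 ± 8.75 FPKM in p53-/- KD, 355.5 ± 12.4 in p53-/- SCR, 282.6 ± 4.05 in p53+/+ KD and 301.7 ± 10.6 in p53+/+ SCR. PRMT1 alone supplied 55.5% ± 0.490 of that sum in p53-/- KD, 52.3% ± 0.693 in p53-/- SCR, 55.2% ± 1.36 in p53+/+ KD and 55.3% ± 0.293 in p53+/+ SCR.

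**Figure D4:**
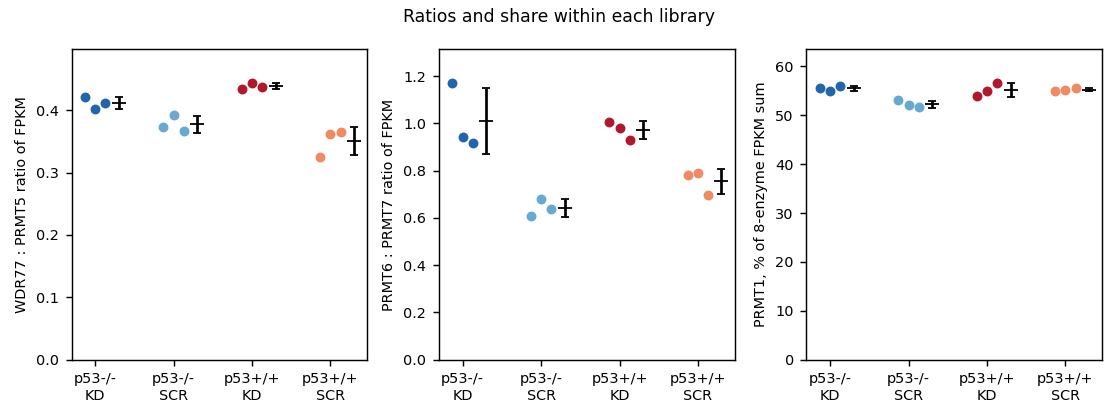
WDR77 to PRMT5 and PRMT6 to PRMT7 ratios of FPKM, and PRMT1 as a percent of the summed FPKM of the 8 enzyme genes, in each of the 12 libraries (linear axes from 0). Points are libraries and bars are mean ± SD (n = 3); in each line the depleted libraries have the higher WDR77 to PRMT5 ratios.

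The genes that recruit, feed and read arginine methylation were described from lists of other pathway genes, by counts of calls. Among 7 adaptors and partners of the methyltransferases, 3 were called higher and 3 lower in p53-/- KD cells, and 2 higher and 1 lower in p53+/+ KD cells. Over all genes 58.8% were called in either direction in p53-/- cells, against 60.7% in p53+/+ cells, so nothing is read from the list as a whole. COPRS, which recruits PRMT5 to nucleosomes, averaged 11.1 FPKM in p53-/- KD and 24.4 in p53-/- SCR (log2 change -1.08, limma adjusted p = 5.23e-07), and 9.50 in p53+/+ KD and 18.6 in p53+/+ SCR (log2 change -0.90, limma adjusted p = 2.14e-06). BTG2, an antiproliferative protein that binds PRMT1 and is a known p53 target, averaged 6.68 FPKM in p53-/- KD and 2.45 in p53-/- SCR (log2 change 1.15, limma adjusted p = 1.73e-09), and 36.9 in p53+/+ KD and 13.4 in p53+/+ SCR (log2 change 1.40, limma adjusted p = 2.81e-10). RIOK1, which brings substrates to the PRMT5 complex, fell in p53-/- cells (log2 change -0.33, limma adjusted p = 4.45e-05) and changed by -0.08 in p53+/+ cells (limma adjusted p = 0.143).

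The S-adenosylmethionine cycle, which makes the methyl donor and clears its product, had no gene called higher in either line. Of its 8 tested genes 5 were called lower in p53-/- cells and 6 in p53+/+ cells, with a median log2 change of -0.24 in p53-/- and -0.29 in p53+/+ cells. Over all genes 29.9% were called lower in p53-/- cells and 32.2% in p53+/+ cells, with a median of -0.0028 in p53-/- and -0.02 in p53+/+ cells. AHCY, which hydrolyses the inhibitory product S-adenosylhomocysteine, averaged 75.9 FPKM in p53-/- KD and 127.7 in p53-/- SCR (log2 change -0.74, limma adjusted p = 2.74e-08), and 134.8 in p53+/+ KD and 176.8 in p53+/+ SCR (log2 change -0.39, limma adjusted p = 5.22e-06). The difference between these effects was -0.35 (limma adjusted p = 0.000809). MAT2B, the regulatory subunit of the enzyme that makes S-adenosylmethionine, changed by -0.37 in p53-/- cells (limma adjusted p = 0.000281) and -0.47 in p53+/+ cells (limma adjusted p = 3.65e-05). MTR, methionine synthase, changed by -0.29 (limma adjusted p = 0.000955) in p53-/- cells and -0.54 (limma adjusted p = 4.95e-06) in p53+/+ cells.

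Of genes that remove methylarginine or act on its products, 5 were tested, but PADI2 and PADI3 passed the filter through 1 group each, p53+/+ SCR for PADI2 and p53+/+ KD for PADI3, so no count over the list is given. DDAH2, a relative of the enzyme DDAH1 that breaks down free asymmetric dimethylarginine, averaged 71.9 FPKM in p53-/- KD and 37.5 in p53-/- SCR (log2 change 0.92, limma adjusted p = 3.72e-08), and 51.3 in p53+/+ KD and 30.0 in p53+/+ SCR (log2 change 0.76, limma adjusted p = 1.59e-07). DDAH1 changed by 0.44 in p53-/- cells (limma adjusted p = 3.14e-05) and by -0.22 in p53+/+ cells (limma adjusted p = 0.00577), a p53+/+ call that was lost with mitochondrial genes left out (adjusted p = 0.0835). PADI3, a deiminase that turns arginine into citrulline, averaged 0.408 FPKM in p53-/- KD and 0.0964 in p53-/- SCR, and 2.44 in p53+/+ KD and 0.265 in p53+/+ SCR.

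Of 22 type I substrates, 4 were called higher and 12 lower in p53-/- cells, and 2 higher and 16 lower in p53+/+ cells, with a median log2 change of -0.19 in p53-/- and -0.29 in p53+/+ cells. The shares over all genes were 28.9% higher and 29.9% lower in p53-/- cells, and 28.5% higher and 32.2% lower in p53+/+ cells. NCL, the nucleolar protein nucleolin, averaged 101.7 FPKM in p53-/- KD and 218.2 in p53-/- SCR (log2 change -1.09, limma adjusted p = 4.90e-10), and 122.1 in p53+/+ KD and 228.7 in p53+/+ SCR (log2 change -0.90, limma adjusted p = 1.76e-09). PABPC1, the cytoplasmic poly(A)-binding protein methylated by CARM1, changed by -0.23 in p53-/- cells (limma adjusted p = 9.33e-06) and -0.66 in p53+/+ cells (limma adjusted p = 1.15e-09). Both genes have processed copies in the genome that could share reads. Of 11 type II substrates, 1 was called higher and 6 lower in p53-/- cells, and 2 higher and 9 lower in p53+/+ cells. SNRPD1, an Sm protein, changed by -0.36 in p53-/- cells (limma adjusted p = 5.56e-05) and -0.66 in p53+/+ cells (limma adjusted p = 2.65e-07). RUVBL1, an ATPase of chromatin complexes methylated by PRMT5, changed by -1.06 in p53-/- cells (limma adjusted p = 8.34e-10) and -0.71 in p53+/+ cells (limma adjusted p = 1.80e-08). Of 5 Tudor-domain readers, 1 was called lower in each line: SND1, a coactivator that binds symmetric dimethylarginine, changed by -0.31 in p53-/- cells (limma adjusted p = 9.54e-06) and -0.37 in p53+/+ cells (limma adjusted p = 1.85e-06). Of 2 tested arginine methyltransferases outside the family, METTL23, known in mouse to methylate histone H3, was called lower in both lines, by -0.12 in p53-/- cells (limma adjusted p = 0.0163) and -0.25 in p53+/+ cells (limma adjusted p = 0.000146); the p53-/- call was lost with mitochondrial genes left out (adjusted p = 0.117), with only the groups compared in the fit (0.0528) and without p53-/- KD replicate 2 (0.0694) or p53-/- SCR replicate 3 (0.0649).

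Between the lines the same lists are given beside the shares over all genes, which were 37.0% higher and 27.3% lower in p53-/- among depleted cells and 36.7% higher and 26.6% lower among controls. Of the 8 genes of the S-adenosylmethionine cycle, 3 were called higher and 5 lower in p53-/- among depleted cells, and 1 higher and 5 lower among controls. MTAP, which salvages methionine, averaged 23.2 FPKM in p53-/- KD and 34.4 in p53+/+ KD (log2 -0.55, limma adjusted p = 1.02e-06), and 25.3 in p53-/- SCR and 43.4 in p53+/+ SCR (log2 -0.76, limma adjusted p = 8.24e-08). Of the 11 type II substrates, 7 were called higher and 3 lower in p53-/- among depleted cells, and 5 higher and 2 lower among controls. KLF4, a transcription factor methylated by PRMT5, averaged 4.60 FPKM in p53-/- KD and 11.7 in p53+/+ KD (log2 -1.18, limma adjusted p = 4.88e-09), and 4.59 in p53-/- SCR and 31.4 in p53+/+ SCR (log2 -2.54, limma adjusted p = 8.59e-12). No count between the lines is given for the 22 type I substrates, because FOXO1 passed the filter through the p53+/+ line, where it was higher. FOXO1 averaged 0.804 FPKM in p53-/- KD and 0.946 in p53-/- SCR, against 1.75 in p53+/+ KD and 1.73 in p53+/+ SCR. ALYREF, an mRNA export factor, was higher in p53-/- by 0.68 in depleted cells (limma adjusted p = 1.20e-07) and by 0.48 in controls (limma adjusted p = 3.12e-06).

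**Figure D5:**
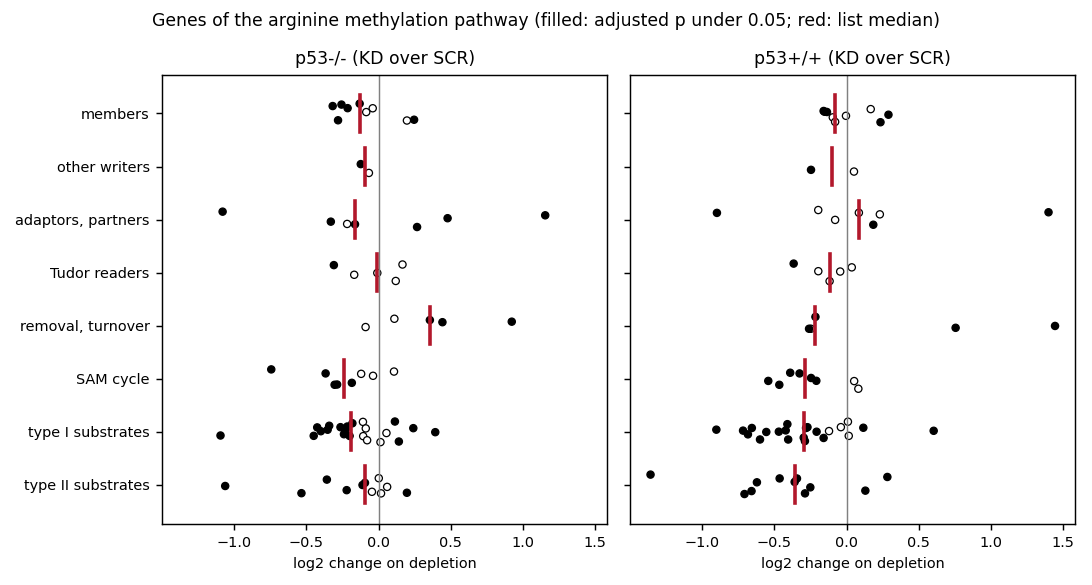
Change on depletion (log2 scale, FPKM + 1), KD over SCR, of the 9 genes and of the listed adaptors, readers, removal enzymes, S-adenosylmethionine cycle genes and substrates, in p53-/- cells and in p53+/+ cells. Each point is a gene, filled where the limma adjusted p was under 0.05, and red bars are list medians, where the removal list holds PADI2 and PADI3, each kept through 1 group; the S-adenosylmethionine cycle has a median of -0.24 in p53-/- and -0.29 in p53+/+ cells.

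PRMT9 was called in no comparison and was not compared by profile. The profile of each of the other 8 genes over the 12 libraries was set against those of 8064 genes with a mean of at least 5 FPKM, by the root mean square difference of centred log2 values, where a smaller value means a closer profile. For PRMT5 the closest was MTA2, at 0.0405, and MTA2 averaged 37.8 FPKM in p53-/- KD, 44.4 in p53-/- SCR, 34.2 in p53+/+ KD and 35.1 in p53+/+ SCR. WDR77 was closest to COA4, at 0.0457, with 39.0 FPKM in p53-/- KD, 43.2 in p53-/- SCR, 39.5 in p53+/+ KD and 33.7 in p53+/+ SCR, so COA4 too was highest in p53-/- SCR and lowest in p53+/+ SCR. PRMT6 was closest to SPAG7, at 0.0571, and PRMT7 to L3MBTL2, at 0.0660. CARM1 was closest to NOP9 (0.0344), PRMT1 to IRF3 (0.0340), PRMT2 to RIPK1 (0.0401) and PRMT3 to TMED10 (0.0532). The genes share libraries and scaling, so likeness here is a description.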

How the data were processed

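RNA was selected with oligo(dT) and sequenced on an Illumina HiSeq, per the series design text, and hg19 was used, per the submitters' processing notes. The sources used here do not name an aligner, counter or depth. The authors deposited 1 table of gene symbols by library without a stated unit. The deposited values were read as FPKM because they are not whole, have unequal totals, and give ND4L to ND4 ratios of 0.970 to 1.06 although these genes of 1 mitochondrial transcript differ in length. Whole reads could not be recovered from low values, so no count test and no counting interval was made. Columns were matched to samples by name, and groups come from sample titles. No libraries held identical values.

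Genes with at least 1 FPKM in at least 3 libraries were kept, 13728 of 36615. One limma model (version 3.58.1, R 4.3.3) with 4 group means, 8 residual degrees of freedom and trended variance was fitted to log2(FPKM + 1), with 5 comparisons and Benjamini-Hochberg adjustment over all genes at 0.05. The script was checked on simulated data. An exact permutation test of 3 against 3 cannot go below 0.1 and was not used. Alternatives were a pseudocount of 0.1, no filter, a filter at 5 FPKM, TMM-type scaling by trimmed mean log ratios, leaving out 37 mitochondrially encoded genes, no variance trend, only the groups compared, a replicate block, and leaving out each library. Genes outside the 9 were named as RIOX2 for the check of the depletion (1 other check is not reported here), as up to 3 genes per list and comparison with the smallest p among those called, and as the closest profiles; overlapping genes and cell type markers were added as context. FOXO1 was named for how it passed the filter. The 9 genes, the lists and the ratios were chosen with earlier results of these data known. Promoters came from RefSeq (GRCh38.p14), and overlapping genes from GENCODE v29, both by symbol, since the build of the files differs.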

Additional observations from a re-analysis of the deposited data

Results flagged for a closer look

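Effects of depletion differed between the p53-/- and the p53+/+ line, by the limma test of the difference itself (p53-/- minus p53+/+, log2 scale, adjusted p under 0.05 over all genes), for 4 of the 9 genes: WDR77 by -0.37, PRMT7 by -0.31, PRMT5 by -0.18 and CARM1 by -0.14. Over all genes the difference was called for 32.9% in either direction, 16.7% higher and 16.2% lower. RIOX2 differed by -0.55, so the depletion itself was unequal.

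Among genes of the surrounding pathway, the adaptors RIOK1 and GRWD1 each differed by -0.25 and BTG2 by -0.24. Of the 7 adaptors, the difference was called lower for these 3 and higher for 2 others. Over all genes it was called lower for 16.2% and higher for 16.7%. In the S-adenosylmethionine cycle AHCY differed by -0.35, MTR by 0.26 and MTAP by 0.20. Of enzymes that act on methylarginine or arginine, DDAH1 differed by 0.66. PADI3 differed by -1.09, but it passed the filter on low values only through p53+/+ KD, the group where it is high, so nothing is read from this difference. Of substrates, KLF4 differed by 1.36, RBM15 by 0.51, PABPC1 by 0.43, KHDRBS1 by 0.30, LSM4 by 0.25 and RUVBL1 by -0.35. KLF4 averaged 4.60 FPKM in p53-/- KD and 4.59 in p53-/- SCR, and 11.7 in p53+/+ KD and 31.4 in p53+/+ SCR. The differences of MTR and MTAP were lost with mitochondrial genes left out (0.21, adjusted p = 0.0873, and 0.15, adjusted p = 0.162) and when any of several single libraries was left out, and that of BTG2 with a pseudocount of 0.1 (adjusted p = 0.647).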

How the results depend on the processing

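Of 45 gene results (9 genes in 5 comparisons), 25 kept their direction and side of the threshold in every alternative. Of 886 alternative values, 822 did so, 36 lost a call, 6 gained one and 22 changed sign. With mitochondrial genes left out, 3 of the 9 genes were called in p53+/+ cells (3 higher, 0 lower). Leaving out 1 library gave 3 to 6 there, and 2 to 4 for the difference between the lines. In the main fit 60.7% of all genes were called in p53+/+ cells and 32.9% in the difference. Nothing about the 9 genes as a set is read from these counts. All sign changes were in values that were not called. With mitochondrial genes left out these were PRMT1 (0.0011), PRMT5 (0.016) and PRMT7 (0.076) in p53+/+ cells, PRMT1 (0.0043) in p53-/- cells, PRMT9 (-0.0062) in the difference, and PRMT9 (-0.019) and WDR77 (-0.0022) between the lines in depleted cells. With TMM-type scaling they were PRMT7 (0.013) in p53+/+ cells, and PRMT9 (-0.048), CARM1 (-0.035) and WDR77 (-0.043) between the lines in depleted cells. Leaving out 1 library gave -0.052 to 0.044 for PRMT7 in p53+/+ cells, -0.081 to 0.0075 for PRMT6 and -0.039 to 0.12 for PRMT9 in the difference, -0.056 to 0.0089 for PRMT9 between the lines in controls and -0.068 to 0.090 for PRMT9 between them in depleted cells. Leaving out mitochondrial genes raised the share of calls that were higher to 59.1% in p53+/+ cells, against 47.0%. It lowered that share in the difference to 38.8%, against 50.7%. TMM-type scaling lowered the share between the lines to 49.6% in depleted cells, against 57.5%, and to 51.8% in controls, against 58.0%. The median of all genes moved by at most 0.08 with either setting.

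Replicate numbers did not pair the libraries: deviations of same-numbered libraries correlated between -0.10 and 0.16. With the replicate block, 4 of the 9 genes were called in p53+/+ cells, 6 in p53-/- cells and 3 in the difference. Between the lines 8 were called in controls and 6 in depleted cells. Shares of all genes called in the main fit, without the block, were 60.7% in p53+/+ cells, 58.8% in p53-/- cells and 32.9% in the difference. Between the lines they were 63.4% in controls and 64.3% in depleted cells. The calls lost with the block were PRMT3 in p53+/+ cells (adjusted p = 0.0694) and CARM1 in the difference (adjusted p = 0.0541). What depth limits is unknown, and PRMT9, PRMT3, PRMT6 and PRMT7 are the low genes whose fold changes the pseudocount shrinks.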
